A study of Amphimedon queenslandica with 144 samples.

Results

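Ageing was examined in larvae of the demosponge Amphimedon queenslandica that stayed swimming beside Amphiroa fragilissima, a coralline red alga with jointed branches. The comparison set 9 larvae that were 10 h old against 9 larvae that were 3.5 h old, 18 of the 144 animals in the series, chosen by their labels for cue, age and swimming state. Each animal was 1 whole larva, sequenced on its own by CEL-Seq2, which barcodes the 3' end of polyadenylated RNA and counts molecules by a short random tag. Older larvae had been placed with the alga 8 h after emergence and younger larvae 1.5 h after emergence, and both were collected after 2 h with it, so the length of exposure was the same and age at exposure was not. Another 2 ages with the same alga (5 and 7 h, 9 larvae each) filled the time between them. Larvae of the same 2 ages with the crustose coralline alga Mesophyllum sp., and in filtered seawater as the control without an alga, served as comparisons (9 larvae per group). Scores and single genes were also read in larvae of 5 and 7 h from both, and in larvae of 0.5 h without a cue (9 per group). Each larva had its own well of filtered seawater. Settled post-larvae were left out of these groups, but the fit to all 144 animals included them as groups of their own. The labels list settled animals on A. fragilissima at 7 and 10 h and none at 3.5 h, so the 10 h larvae were those of their age that had not settled. Plates stood under natural light, so larval age and time of day cannot be told apart. No source used here says how many adults the larvae came from, and p-values measure the spread between single larvae.

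Larvae of this sponge are brooded by the adult and swim with cilia after release. They settle and turn into a juvenile only after a period of swimming in which they become competent to respond to surface cues, and coralline red algae are well-known inducers of that step. The deposited table names its features by gene-model identifier (Aqu2.1) or by a TCONS identifier and does not pair them with gene names. No role can therefore be given to any gene named here, and levels of different genes are not compared per length because the counts come from 3' ends.

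Sequencing libraries had been made in 3 sets called T, K and C. The 10 h larvae lay 3 in each set, and the 3.5 h larvae lay 3 in T, 5 in K and 1 in C. Depth moved with age. Total counts averaged 2062660 ± 500235 at 10 h and 1460890 ± 326612 at 3.5 h (SD, n = 9 each; exact permutation test within sets, 2-sided, adjusted p = 0.00685 over 4 values tested). In set T the totals of the ages overlapped, at 1407453 to 1657947 at 10 h and 1150296 to 1915882 at 3.5 h. In set K they did not, at 2369386 to 2905367 at 10 h and 979507 to 1635280 at 3.5 h. The number of features with a count averaged 19565 ± 1551 at 10 h and 17885 ± 1157 at 3.5 h (SD, n = 9 each; same exact test, adjusted p = 0.0127). At the depth of the shallowest of the 18 larvae the expected numbers were 17172 ± 692 at 10 h and 16678 ± 517 at 3.5 h (SD, n = 9 each), a difference of 494 features (exact p = 0.0598). The part of depth in the gene changes below was not tested apart from the fits named with them. Because whole larvae were sequenced, fewer cells of a type and less RNA per cell cannot be told apart in any result here.

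Between the ages 2376 of 14950 tested features changed (15.9%, adjusted p below 0.05 with edgeR). Levels of 1333 genes were higher at 10 h (8.92%) and levels of 1043 genes were lower at 10 h (6.98%). The median log2 fold change, 10 h over 3.5 h, was 0.96 among the genes that rose, -0.90 among those that fell and 0.06 over all features tested. Changes of at least 4-fold were fitted for 164 rising and 197 falling genes, against 70 and 104 in a fit to the 36 larvae with A. fragilissima alone and 43 and 66 in a fit to the 18 larvae alone. The cause of that difference was not tested. With log2 of the total count of each larva added as a covariate, 1103 genes rose and 984 fell. Within set T alone, where depth overlapped, 216 rose and 197 fell. Of the genes called in T and tested in K, which holds other larvae, 207 of 214 rising genes and 191 of 197 falling genes had the same sign of change in K. That is 96.7% and 97% of them, against 51.3% of all features with a positive and 48.7% with a negative change in K.

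Falling genes lay mostly among the abundant ones. Features were ranked by their mean level over the 18 larvae in CPM (counts scaled to a common library total) and cut into 5 classes of 2990. In the most abundant class, with means of 68.1 to 4850 CPM, 19% fell and 11% rose. In the least abundant class, with means up to 3.21 CPM, 2.21% fell and 3.61% rose. Small differences are harder to detect at low counts, so these shares describe calls and not how many genes changed. Falling genes had a median level of 53.3 CPM at 10 h and 104 CPM at 3.5 h. Rising genes had a median level of 36.8 CPM at 10 h and 18.6 CPM at 3.5 h. Most of them were read in every animal, since 894 of the falling and 1084 of the rising genes had a count in all 18 larvae. Most tested features were too, at 10013 of 14950. Counts in the table stop at a fixed upper value, and of the 183 features with any count past 50% of it, where fold changes may be compressed, 44 fell and 12 rose.

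Summed over its members in CPM, the list of falling genes made up 14.9% ± 1.25 of the scaled total of a larva at 10 h. At 3.5 h it made up 27.1% ± 3.81 of it (SD, n = 9 each). The scaled total is the library total times a normalization factor, which averaged 1.09 at 10 h and 0.99 at 3.5 h. These values are therefore not shares of the raw counts. Rising genes made up 11.6% ± 0.98 at 10 h and 6.61% ± 0.68 at 3.5 h. These sums describe the lists and are no test of them, because the members were called in the same larvae. Neither shift rested on a few genes. The 10 falling genes with the biggest difference in mean CPM held 14.6% of the summed fall, and 80 genes were needed to reach 50% of it. For the rising genes the top 10 held 12.6% of the summed rise, and 135 genes were needed for 50%.

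**Figure D1:**
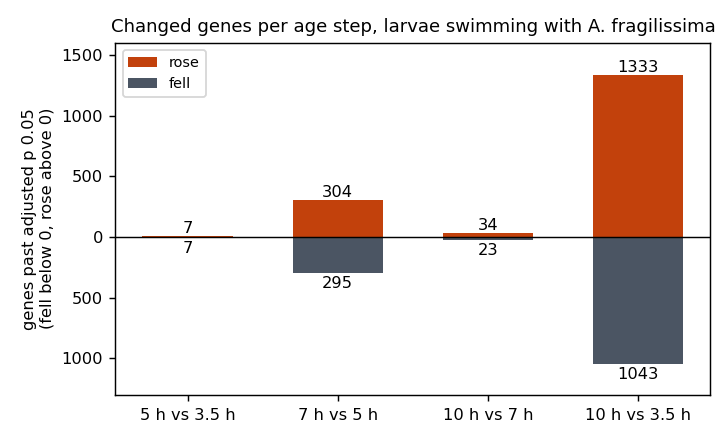
Numbers of genes that passed an adjusted p of 0.05 in larvae swimming with A. fragilissima, for each step between neighbouring ages and for 10 h against 3.5 h. Bars above 0 are genes that rose with age and bars below 0 are genes that fell. The step from 5 to 7 h has 304 rising and 295 falling genes, and the steps before and after it have 7 and 7, and 34 and 23.

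More genes passed the test between 5 and 7 h than in the steps before and after it. At 7 h against 5 h, 599 features changed (4.01%), of which 304 rose (2.03%) and 295 fell (1.97%). At 5 h against 3.5 h, 14 features changed (0.0936%), 7 in each direction (0.0468% each), with 1128 features below an unadjusted p of 0.05. At 10 h against 7 h, 57 changed (0.381%), 34 rising (0.227%) and 23 falling (0.154%). By 7 h, 1453 features already differed from 3.5 h (9.72%), with 846 higher (5.66%) and 607 lower (4.06%). In set K alone the 3 steps had 3, 33 and 29 changed features in order of age. The 3 counts were not tested against each other, the steps differ in length, and the 7 h group has no larva in set C. The 7 h larvae, like the 10 h larvae, were those left swimming at an age at which settled animals were also collected.

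The larvae of the middle step were other animals than those that chose the 2376 genes. Among the 1333 genes higher at 10 h, 89.2% had a positive change at 7 h against 5 h, compared with 68.3% of all features with a positive change between 10 and 3.5 h. Among the 1043 genes lower at 10 h, 89.5% had a negative change at that step, compared with 65.3% of all features with a negative change. The median rising gene changed by 0.26 from 3.5 to 5 h, by 0.41 from 5 to 7 h and by 0.21 from 7 to 10 h on the log2 scale. The median falling gene changed by -0.15, -0.40 and -0.28 over the same steps. By 7 h the median rising gene had covered 76.1% of its change on the log2 scale and the median falling gene 69.2%, against 29.5% and 18% by 5 h. Over all features with a change of the same sign the medians were 73.1% for positive and 65.1% for negative changes by 7 h, and 30.5% and 27.6% by 5 h, so this timing was near that of all features. Of the genes called in the middle step itself, 194 of 304 rising and 241 of 295 falling genes also passed the test in the same direction at 10 h against 3.5 h.

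Single genes showed the steps at different times. Aqu2.1.32109_001, which had the smallest p among genes that fell at 7 h against 5 h, was at 92.2 to 166 CPM in 10 h larvae (median 140) and at 1218 to 1996 CPM in 3.5 h larvae (median 1561). No 10 h larva came near the 3.5 h range. Group means ran through 1544 ± 293, 1023 ± 152, 273 ± 52.9 and 131 ± 25.5 CPM at 3.5, 5, 7 and 10 h (SD, n = 9 each). Larvae of 0.5 h, before any cue, had a mean of 1272 ± 181 CPM (SD, n = 9). The log2 fold change was -1.96 at 7 h against 5 h (SE 0.16, edgeR adjusted p = 1.14e-19) and -3.52 at 10 h against 3.5 h (SE 0.17, edgeR adjusted p = 9.70e-40).

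Aqu2.1.28748_001, which led the genes that fell in the last step, was at 78.7 to 290 CPM in 10 h larvae (median 132) and at 1375 to 2858 CPM in 3.5 h larvae (median 2037), again without overlap. Its group means were 1970 ± 464, 1455 ± 468, 638 ± 134 and 151 ± 63.8 CPM at 3.5, 5, 7 and 10 h (SD, n = 9 each). Its mean at 0.5 h was 1989 ± 467 CPM (SD, n = 9). The fall was -2.22 in log2 at 10 h against 7 h (SE 0.24, edgeR adjusted p = 4.94e-12).

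Aqu2.1.40667_001, which led the genes that rose in the last step, was low from 3.5 to 7 h. It was at 40.7 to 184 CPM in 10 h larvae (median 116) and at 0.73 to 9.15 CPM in 3.5 h larvae (median 6.82), and its means were 6.21 ± 2.88, 6.27 ± 2.81, 9.43 ± 6.31 and 112 ± 53.1 CPM at 3.5, 5, 7 and 10 h (SD, n = 9 each). The log2 fold change of this gene was 3.64 at 10 h against 7 h (SE 0.51, edgeR adjusted p = 6.90e-07). At 7 h against 3.5 h it was 0.64, which did not pass the test (SE 0.51, edgeR adjusted p = 0.50). Of its 10 h larvae the 2 lowest and the highest were all from set K. At 0.5 h, before any cue, the mean of Aqu2.1.40667_001 was 28.3 CPM (median 22.8, range 1.67 to 82.1, n = 9). That mean lay above those at 3.5, 5 and 7 h and below that at 10 h. The 0.5 h range overlapped the range of each of these ages.

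Aqu2.1.38117_001, the rising gene with the smallest p at 7 h against 5 h, was at 303 to 461 CPM in 10 h larvae (median 398) and at 99.7 to 201 CPM in 3.5 h larvae (median 146), without overlap. Its log2 fold change at 7 h against 5 h was 0.82 (SE 0.14, edgeR adjusted p = 2.52e-05). Its mean was 346 ± 89.3 CPM at 0.5 h, 149 ± 37.9 CPM at 3.5 h and 380 ± 54.3 CPM at 10 h (SD, n = 9 each). Aqu2.1.29860_001 led the few genes that rose at 5 h against 3.5 h, by 1.06 in log2 (SE 0.21, edgeR adjusted p = 0.0088). This gene stood at 10.5 to 27.3 CPM in 10 h larvae (median 15.9) and at 2.92 to 9.53 CPM in 3.5 h larvae (median 6.29), and its later steps did not pass the test. Its mean was 12.4 ± 3.13 CPM at 0.5 h and 6.09 ± 2.20 CPM at 3.5 h (SD, n = 9 each). In a fit to the 36 larvae with A. fragilissima alone, no gene passed at 5 h against 3.5 h, and Aqu2.1.29860_001 had an adjusted p of 0.098.

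**Figure D2:**
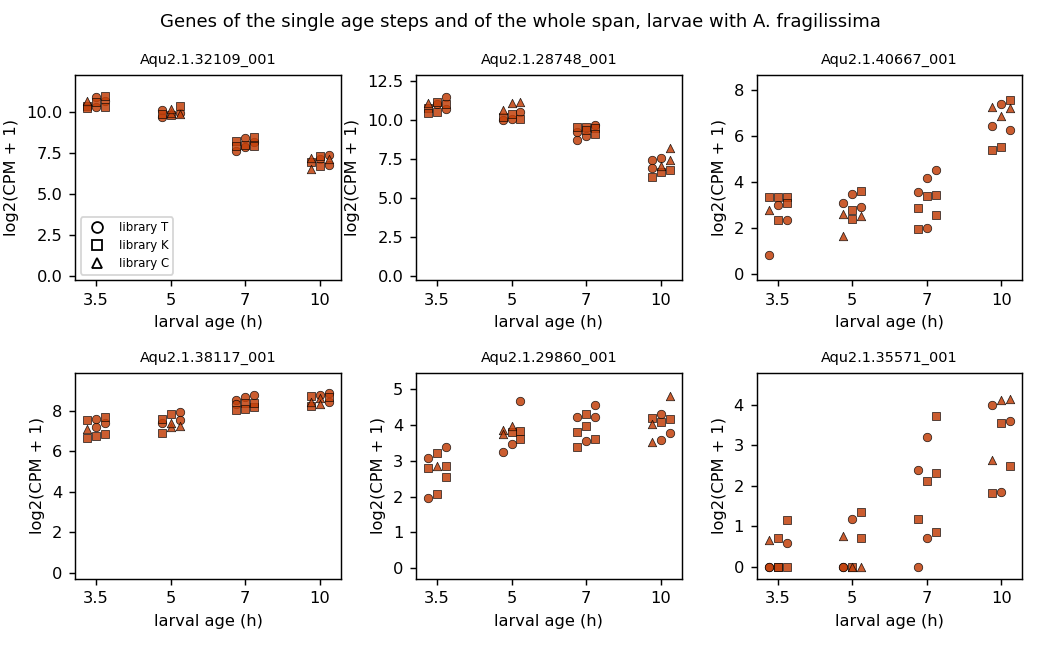
Level of 6 genes in single larvae swimming with A. fragilissima at 3.5, 5, 7 and 10 h (9 larvae per age; y axis log2 of CPM + 1; marker shape gives the library set). Aqu2.1.32109_001 and Aqu2.1.28748_001 fall with age, Aqu2.1.40667_001 is high at 10 h, and Aqu2.1.38117_001 and Aqu2.1.29860_001 step up at 7 h and at 5 h. Aqu2.1.35571_001 has no count in 5 of 9 larvae at 3.5 h and in 5 of 9 at 5 h.

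Genes with the largest fold changes were of another kind. Among rising genes that were read in all 9 larvae of 10 h and changed with the same sign in T and K, Aqu2.1.06371_001 and Aqu2.1.35571_001 had the largest log2 fold changes. Aqu2.1.35571_001 was at 2.51 to 16.7 CPM in 10 h larvae (median 10.6, 182 counts in all) and at 0 to 1.21 CPM in 3.5 h larvae (median 0, 5 counts in all). All 10 h larvae were above all 3.5 h larvae. The log2 fold change was 4.51 (SE 0.80, edgeR adjusted p = 5.54e-06). Change in the middle step was 3.18 (SE 0.80, edgeR adjusted p = 0.0087). Larvae of 0.5 h had a mean of 3.65 ± 4.68 CPM of this gene (SD, n = 9).

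Aqu2.1.06371_001 had its rise in few larvae. Its 10 h levels were 494 CPM in 1 larva and 109 CPM in another, while the other 7 lay between 0.35 and 1.52 CPM, and its 3.5 h levels were 0 to 1.72 CPM. The medians were 0.65 CPM at 10 h and 0 at 3.5 h. Its fitted log2 fold change was 6.13 (SE 1.69, edgeR adjusted p = 0.0053), and without the larva at 494 CPM it was 3.81 with an edgeR adjusted p of 0.088. With Mesophyllum sp. its highest levels were 224 CPM at 3.5 h and 287 CPM at 10 h. In seawater they were 5.93 CPM at 3.5 h, 239 CPM at 5 h and 2.29 CPM at 10 h.

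On the falling side the same rule gave Aqu2.1.37223_001 and Aqu2.1.23654_001. Aqu2.1.37223_001 had no count in 6 of the 10 h larvae, with a highest level of 0.63 CPM (4 counts in all), and was at 1.14 to 58 CPM in 3.5 h larvae (median 9.15). The groups did not overlap, and the log2 fold change was -5.95 (SE 1.12, edgeR adjusted p = 2.23e-05). Larvae of 0.5 h had a mean of 0.67 ± 1.46 CPM of this gene (SD, n = 9). Aqu2.1.23654_001 was at 0 to 10.8 CPM in 10 h larvae, while 3 of the 3.5 h larvae were at 997, 1445 and 2023 CPM and the other 6 were at 0.64 to 3.02 CPM. The medians were 1.41 CPM at 10 h and 3.00 CPM at 3.5 h, and the log2 fold change was -8.15 (SE 2.34, edgeR adjusted p = 0.0080). High single larvae were also seen elsewhere, up to 2264 CPM at 0.5 h and 781 CPM at 7 h with A. fragilissima. At 10 h the highest levels were 663 CPM in seawater and 835 CPM with Mesophyllum sp. The medians of these groups lay between 1.27 and 6.88 CPM.

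Such unevenness lay mostly in the large changes. Of the genes that changed at least 4-fold, 42 of 164 rising and 37 of 197 falling genes owed over 50% of the summed level of their higher group to 1 larva. Over all changed genes the numbers were 45 of 1333 and 41 of 1043. When each of the 18 larvae was left out in turn, 155 of the 361 genes with a change of at least 4-fold lost their call at least once (42.9%), and 667 of the 2015 smaller changes did (33.1%). Complete separation of the ages in CPM was seen for 157 rising and 183 falling genes. Over all features tested, 159 (1.06%) were higher in every 10 h larva and 186 (1.24%) were lower in every 10 h larva than in any 3.5 h larva.

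Whole-transcriptome position was described with genes taken from other animals. An age score was made from the 792 genes that rose and the 799 that fell between 3.5 and 10 h in a fit to seawater larvae alone, as the mean log2 CPM of the rising genes minus that of the falling genes after removal of the library set effect. No larva kept with A. fragilissima entered that choice. The score was -1.10 to -0.65 in 10 h larvae (mean -0.87 ± 0.18) and -2.85 to -2.14 in 3.5 h larvae (mean -2.46 ± 0.26, SD, n = 9 each). The ages did not overlap, and they did not overlap within set T or set K either. In set T the score ran from -1.10 to -0.65 at 10 h and from -2.77 to -2.31 at 3.5 h. The lowest scores at 3.5 h, -2.85, -2.77 and -2.72, were those of the shallowest larvae, with totals of 1108820, 1150296 and 979507. At 10 h the shallowest larva, with a total of 1407453, scored -0.93, inside the range of its age. The part of depth in the score was not tested.

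At 5 h the score was -2.14 ± 0.24 (range -2.47 to -1.76), which overlapped the 3.5 h larvae, and at 7 h it was -1.28 ± 0.16 (range -1.55 to -1.09), above every 5 h larva. At 7 h 1 larva reached the range of the 10 h larvae at its low end. Every 10 h larva with A. fragilissima also lay below the mean of 10 h seawater larvae, -0.59 ± 0.16 (SD, n = 9). The seawater larvae chose the genes, so their own values are not an independent comparison. Larvae with Mesophyllum sp., which chose none of the genes, scored -0.88 ± 0.16 at 10 h and -2.11 ± 0.12 at 3.5 h (SD, n = 9 each). Larvae of 0.5 h, before any cue, scored -1.70 ± 0.12 (SD, n = 9). That is above every 3.5 h larva with A. fragilissima and above the 5 h mean. The score thus describes the span from 3.5 to 10 h and does not order larvae by age since emergence.

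**Figure D3:**
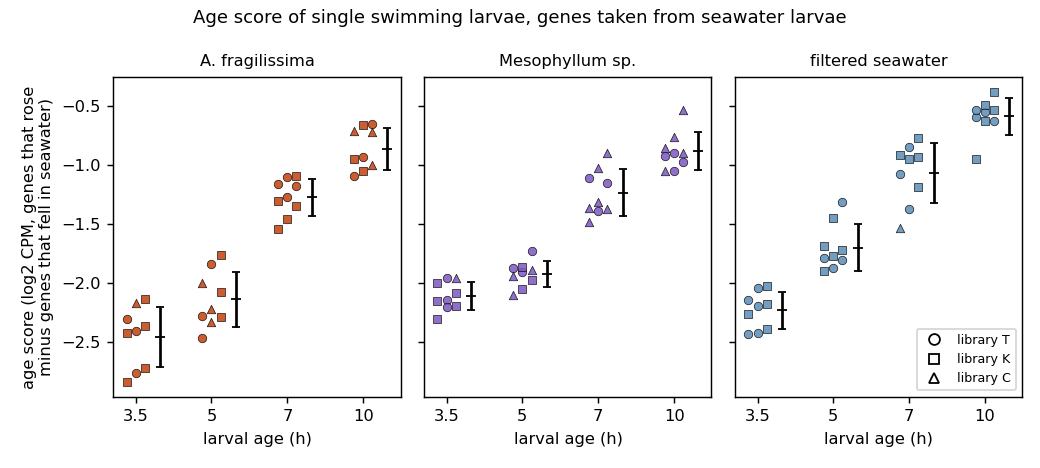
Age score of single swimming larvae at 3.5, 5, 7 and 10 h with A. fragilissima, Mesophyllum sp. or filtered seawater (9 larvae per group). Black marks give mean and SD, and marker shape gives the library set. With A. fragilissima the 10 h larvae lie between -1.10 and -0.65 and the 3.5 h larvae between -2.85 and -2.14. Seawater larvae supplied the genes of the score. Larvae of 0.5 h, which scored -1.70 ± 0.12, are not drawn.

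A principal component analysis of the 36 larvae kept with A. fragilissima, after removal of the library set effect, put age on its first component (10.1% of the variance). Values on it were 23.0 to 49.0 at 10 h and -74.1 to -12.4 at 3.5 h. They were -53.8 to 3.21 at 5 h and -16.8 to 31.3 at 7 h, so neighbouring ages overlapped. The sign of the component was set so that it rose with age. The second component held 5.88%. As a measure of the spread between larvae of one age, the median standard deviation of log2 CPM over 8412 genes with a mean of at least 10 CPM was 0.461 in the 3.5 h larvae, 0.447 in the 5 h larvae, 0.398 in the 7 h larvae and 0.42 in the 10 h larvae.

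Ageing in the other cues was compared next, in animals of which none was shared. Between 10 and 3.5 h, 1186 features changed in seawater larvae (7.93%) and 923 in larvae with Mesophyllum sp. (6.17%). In seawater 584 rose (3.91%) and 602 fell (4.03%), and with Mesophyllum sp. 433 rose (2.9%) and 490 fell (3.28%). Of the genes that rose with A. fragilissima, 392 also rose in seawater, which is 29.4% of the A. fragilissima list and 67.1% of the seawater list. Of those that fell, 386 also fell in seawater, which is 37% and 64.1% of the lists. With Mesophyllum sp. the shared genes were 321 rising (24.1% and 74.1%) and 373 falling (35.8% and 76.1%).

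Of the 14950 features tested, 221 rose and 262 fell under all 3 cues. Aqu2.1.32109_001 was among those that fell, with log2 fold changes, 10 h over 3.5 h, of -3.52 with A. fragilissima, -3.45 with Mesophyllum sp. and -3.80 in seawater. Aqu2.1.40667_001 was among those that rose, with 4.28, 4.75 and 4.20 in the same order. The difference between A. fragilissima and seawater was 0.28 for Aqu2.1.32109_001 (SE 0.21, edgeR adjusted p = 0.86) and 0.07 for Aqu2.1.40667_001 (SE 0.68, edgeR adjusted p = 1.0), neither of which passed the test.

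Most genes called with A. fragilissima and in neither other cue moved in the same direction there. They numbered 841 rising and 546 falling genes, and 80.5% and 80.6% of them had the same sign in both other cues, against 35.6% and 32.4% of all features with a positive or negative sign in both. The median log2 fold change of all 1333 rising genes was 0.96 with A. fragilissima, 0.47 with Mesophyllum sp. and 0.49 in seawater, and that of the 1043 falling genes was -0.90, -0.51 and -0.51. These genes were chosen on the A. fragilissima larvae, a choice that favours a larger change in those larvae. In the genes called with Mesophyllum sp., in larvae of neither other cue, the median was 0.90 with A. fragilissima and 0.73 in seawater for the 433 rising genes. It was -0.79 with A. fragilissima and -0.58 in seawater for the 490 falling genes. Set C holds 3 larvae of 10 h and 1 of 3.5 h with A. fragilissima, 5 and 1 with Mesophyllum sp., and none of these ages in seawater. Without set C the Mesophyllum sp. list had 262 rising and 177 falling genes, with medians of 0.91 and -0.95 with A. fragilissima and 0.73 and -0.65 in seawater. These differences between cues were not tested over the lists.

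Pearson's r of the log2 fold changes over all 14950 features, given as a description across genes, was 0.361 between A. fragilissima and seawater and 0.326 between A. fragilissima and Mesophyllum sp. Values in both share the library set term of 1 fit. Genes are not independent replicates.

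**Figure D4:**
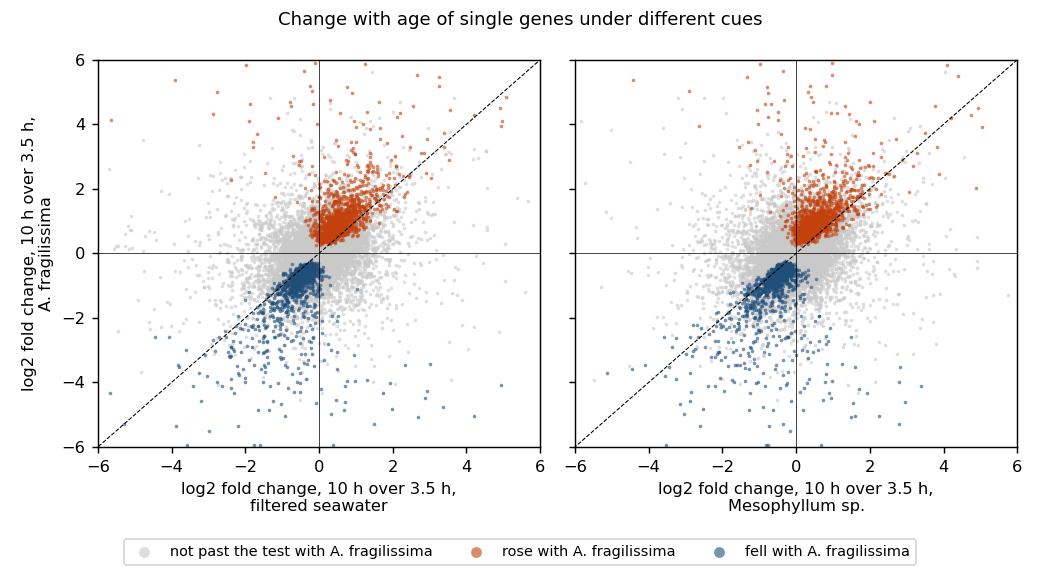
Log2 fold change of each tested gene at 10 h over 3.5 h with A. fragilissima (y axis) against that in seawater (left, x axis) and with Mesophyllum sp. (right, x axis). Orange and blue points are the 1333 genes that rose and the 1043 that fell with A. fragilissima, grey points did not pass the test there, and the dashed line marks equal change. Most coloured points lie on the same side of 0 in both cues; 35 genes lie beyond the axis limits in at least 1 cue.

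The cues were near each other at 10 h and further apart at 3.5 h in the summed level of these lists. Falling genes held 14.9% of the scaled total with A. fragilissima, 15.5% with Mesophyllum sp. and 16.0% in seawater at 10 h. At 3.5 h they held 27.1%, 24.1% and 24.0% in the same order. Rising genes held 11.6%, 11.3% and 11.5% at 10 h, and 6.61%, 8.08% and 8.48% at 3.5 h. The A. fragilissima larvae chose the lists, so a wider gap in them is built in, and it was not tested.

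Tested gene by gene, few changes with age differed between cues. The change from 3.5 to 10 h with A. fragilissima differed from that in seawater for 11 features (0.0736%, edgeR adjusted p below 0.05), more positive in 6 (0.0401%) and more negative in 5 (0.0334%), with 1040 below an unadjusted p of 0.05. It differed from that with Mesophyllum sp. for 2 features (0.0134%, both more negative), with 1118 below an unadjusted p of 0.05. DESeq2 gave 24 and 23 features for these differences. Features that missed the threshold were not shown to change alike between cues. Without the animals of set C the counts were 6 and 0, and the cause was not tested.

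Aqu2.1.28189_001 differed from both other cues. It was at 68.5 to 105 CPM in 10 h larvae with A. fragilissima (median 84.8) and at 122 to 316 CPM in 3.5 h larvae (median 262), without overlap. With Mesophyllum sp. its means were 81.4 ± 14.2 CPM at 10 h and 122 ± 29.7 CPM at 3.5 h, and in seawater they were 94.0 ± 14.7 CPM at 10 h and 121 ± 24.0 CPM at 3.5 h (SD, n = 9 each). At 0.5 h, before any cue, the mean was 87.2 ± 16.9 CPM. The log2 fold change of Aqu2.1.28189_001 with A. fragilissima was -1.34 (SE 0.13), lower than in seawater by -0.97 (SE 0.18, edgeR adjusted p = 0.0014) and than with Mesophyllum sp. by -0.96 (SE 0.18, edgeR adjusted p = 0.0035). The call against Mesophyllum sp. was lost without the low-count filter (edgeR adjusted p = 0.062), without the library term (0.068), without set C (0.21) and in T alone (0.52), where the differences were -0.93, -0.87, -0.89 and -0.93. The fall was complete by 7 h (84.1 ± 12.0 CPM, SD, n = 9), and this gene also led the 7 that fell at 5 h against 3.5 h. The 3 lowest of the 3.5 h values came from 2 larvae of set T, at 122 and 191 CPM, and from the larva of set C, at 124 CPM.

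Aqu2.1.43731_001 was another gene with a steeper fall. It was at 6.45 to 21.7 CPM in 10 h larvae with A. fragilissima (median 9.81) and at 30.5 to 168 CPM in 3.5 h larvae (median 97.9), without overlap. In seawater the means were 14.6 ± 4.30 CPM at 10 h and 40.9 ± 19.1 CPM at 3.5 h (SD, n = 9 each). The log2 fold changes were -3.06 with A. fragilissima (SE 0.27) and -1.48 in seawater (SE 0.25), a difference of -1.58 (SE 0.36, edgeR adjusted p = 0.042). With Mesophyllum sp. the fold change was -2.10 (SE 0.28), and the difference of -0.96 did not pass the test (SE 0.36, edgeR adjusted p = 0.45). At 0.5 h, before any cue, the mean of this gene was 16.8 ± 7.27 CPM (SD, n = 9). With A. fragilissima it was 96.4 ± 40.3 CPM at 3.5 h and 10.9 ± 4.49 CPM at 10 h (SD, n = 9 each).

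**Figure D5:**
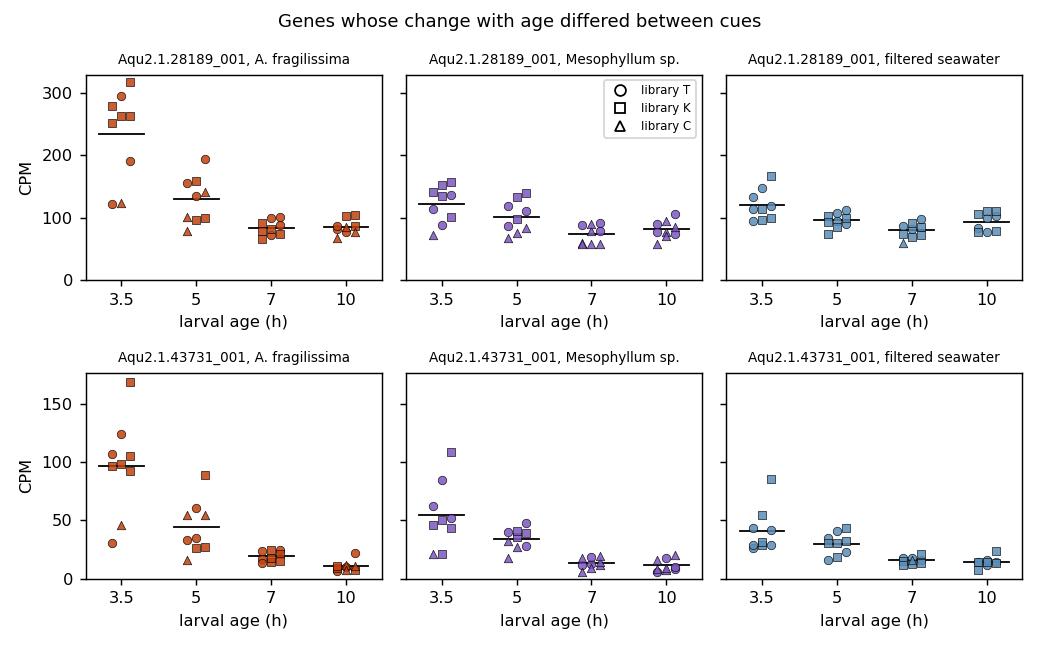
CPM of Aqu2.1.28189_001 (top) and Aqu2.1.43731_001 (bottom) in single swimming larvae at 3.5, 5, 7 and 10 h with A. fragilissima, Mesophyllum sp. or filtered seawater (9 larvae per group, bars are means, marker shape gives the library set). At 10 h the cues lie together, at means of 85.5, 81.4 and 94.0 CPM for Aqu2.1.28189_001, and at 3.5 h the A. fragilissima mean of 234 CPM stands above 122 and 121 CPM.

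Most of the remaining named differences between cues came from a few larvae with high levels. Aqu2.1.21896_001 was less uneven with A. fragilissima, where 9 larvae of 10 h and 4 of 3.5 h had a count. Aqu2.1.05964_001 had counts in 2 of the 10 h larvae with A. fragilissima, at 115 and 153 CPM, and 1 count in all 3.5 h larvae together. In seawater it had no count at 10 h and was at 22.6, 262 and 278 CPM in 3 larvae at 3.5 h. Aqu2.1.04043_001 was at 30.3 and 31.5 CPM in 2 of the 10 h larvae with A. fragilissima and at most 1.28 CPM in every other larva of either age. In seawater 1 larva of 3.5 h had 80.5 CPM. Aqu2.1.21896_001, named because it is the last of the 3 genes that rose with A. fragilissima and fell in seawater, and so chosen after its values were seen, was at 0.65 to 8.46 CPM in 10 h larvae (median 4.29) and at 0 to 2.86 CPM in 3.5 h larvae (median 0). In seawater it was at 0 to 4.79 CPM at 10 h (median 1.84) and at 0 to 108 CPM at 3.5 h (median 3.77), with 1 larva at 108 CPM and the others at most at 8.07 CPM. No gene called as falling with A. fragilissima was called as rising in either other cue (edgeR adjusted p below 0.05). None called as rising with it was called as falling with Mesophyllum sp. By sign alone, 986 of the 1043 falling genes had a negative change in seawater (94.5%) and 965 with Mesophyllum sp. (92.5%). Of all features, 48.2% and 48.7% had a negative change there. Of the 1333 rising genes, 1238 had a positive change in seawater (92.9%) and 1231 with Mesophyllum sp. (92.3%), against 51.8% and 51.3% of all features.

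Another 2 features showed the opposite pattern. TCONS_00005023 did not pass the test with A. fragilissima (log2 fold change -2.44, SE 1.22, edgeR adjusted p = 0.17) and rose in seawater, where 1 larva of 10 h had 192 CPM. Aqu2.1.40676_001 was at 0 to 5.18 CPM in 10 h larvae with A. fragilissima and at 122 and 69.2 CPM in 2 of the 3.5 h larvae, the rest of which were at 0 to 1.07 CPM. Its change differed from that with Mesophyllum sp. by -7.57 (SE 1.60, edgeR adjusted p = 0.045). No feature had a more positive change than with Mesophyllum sp. past the test. Aqu2.1.31054_001 had the smallest p on that side, at 2.35 to 13.97 CPM in 10 h larvae (median 5.16) and 0 to 5.15 CPM in 3.5 h larvae (median 2.14), a difference of 2.63 from the change with Mesophyllum sp. (SE 0.59, edgeR adjusted p = 0.072).

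Transcript changes of ageing were also set beside those of settlement, as counts without a test. Settlement genes were taken from Mesophyllum sp. animals alone, 7 settled against 9 swimming at each of 7 and 10 h. None of these animals was among the 18 larvae. Of 11973 features tested in both, 1250 rose and 927 fell with age in larvae with A. fragilissima, and 1585 rose and 789 fell on settlement. The shared rising genes numbered 246, which is 19.7% of the ageing list and 15.5% of the settlement list, where 13.2% of all features rose on settlement. The shared falling genes numbered 101, which is 10.9% and 12.8%, where 6.59% of all fell on settlement. Opposite directions were also found. Of the genes that fell with age, 166 rose on settlement (17.9%, against 13.2% of all features). Of those that rose with age, 63 fell on settlement (5.04%, against 6.59% of all features). A score over all settlement genes was 0.92 ± 0.20 in 10 h larvae (range 0.64 to 1.34) and 0.83 ± 0.14 in 3.5 h larvae (range 0.64 to 1.06; SD, n = 9 each), and the ranges of the ages overlapped.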

How the data were processed

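Per the labels, single larvae were sequenced by CEL-Seq2 and reads were assigned to Aqu2.1 gene models with a public CEL-Seq pipeline. Sources used here name no aligner and no genome build. The authors deposited a single count table, in whole numbers and not normalized, with 47411 features (44016 Aqu2.1 models and 3395 TCONS features) and 144 animals. Values stop at 8192, so fold changes of very high counts may be compressed. Here, filterByExpr by group kept 14950 features, which hold 99.4% of the counts. Library sizes were scaled by TMM, and edgeR 4.0.16 in R 4.3.3 fitted 17 group means and a term for library set to all 144 animals (robust quasi-likelihood F test, 2-sided, Benjamini-Hochberg adjusted p below 0.05 over all features). SE was taken as the absolute log2 fold change over the root of the F value. CPM use scaled totals and are not corrected for library set. Scores and principal components used log2 CPM (prior count 2) with the library set effect removed by limma 3.58.1 with group means kept. Totals and other single values were compared by exact permutation within library sets (4480 rearrangements).

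The members, lists and tests were chosen with earlier results of these data known. Named genes were, for 10 h against 3.5 h, the 2 rising and 2 falling genes with the largest fold change among those called, read in all 9 larvae of the higher group and of the same sign in T and K; for each difference between cues, 2 per direction with a mean of at least 5 CPM in 1 group; for each step, the smallest p per direction. Alternatives were DESeq2 1.42.0, its size factors, no low-count filter, other sets of animals, no library term, a depth covariate, single library sets, no features with a count past 50% of the limit, each larva left out in turn, and a replicate block. The fit was tested on simulated counts with known changes, for 10 h against 3.5 h and for the difference of that change from seawater. In both, the share of false calls was above the adjusted p threshold and most of the smaller changes were not recovered. Most of the larger changes, of 4-fold, were recovered for 10 h against 3.5 h but not for the difference from seawater. Python 3.11.15 with SciPy 1.17.1, NumPy 2.4.6, pandas 2.3.3 and matplotlib 3.10.9 was used for exact tests and plots. The RefSeq gene table matched 0 of the identifiers, so no gene names, coordinates or sequences are given.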

Additional observations from a re-analysis of the deposited data

Results flagged for a closer look

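Of 66 groups of 9 larvae screened for a sample far from the others, 4 had one, and chance gives about 1 in 20. These were a 5 h larva with A. fragilissima in which 15436 features had a count, a 7 h larva at -16.8 on the first principal component, a 3.5 h larva with 0.64 CPM of Aqu2.1.05964_001, which is its single count in that group, and a 3.5 h larva with 0.73 CPM of Aqu2.1.40667_001. The screen of single genes used log2 of CPM + 1.

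The change from 3.5 to 10 h differed between cues, by the edgeR test of the difference itself, for 7 named features. Against seawater the log2 difference was 18.48 for Aqu2.1.05964_001, whose seawater larvae of 10 h had no count, so that this fitted value depends on the prior count and is no measured fold. It was 9.76 for Aqu2.1.04043_001, 4.64 for Aqu2.1.21896_001, -0.97 for Aqu2.1.28189_001, -1.58 for Aqu2.1.43731_001 and -7.32 for TCONS_00005023. Against Mesophyllum sp. it was -0.96 for Aqu2.1.28189_001 and -7.57 for Aqu2.1.40676_001.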

How the results depend on the processing

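All 2376 genes kept the sign of their change at 10 h against 3.5 h in every alternative fit to larvae of more than 1 library set in which they were tested, apart from the fits that leave out 1 larva. Of those 18 fits 14 kept all 2376 signs, and the lowest kept 2373. Within sets, 98.6% kept it in T, 99.7% in K and 90.8% in C, which has 1 larva of 3.5 h; there Aqu2.1.23654_001 turned to 1.52 in log2 (edgeR adjusted p = 1). The number of changed genes was 413 in T, 1053 in K and 12 in C, fits with fewer larvae, and 1883 to 2887 in the others but for the block. Leaving out each larva in turn gave 2039 to 2490 genes, and 1554 of the 2376 were called every time. The 5 replicate numbers shared by both ages did not pair larvae (correlations of same-numbered larvae -0.025 to 0.011, and in none of the 5 was the own number the best match). With the number as a replicate block in the 36 larvae, 1680 genes changed at 10 h against 3.5 h, 0 at 5 h against 3.5 h and 258 at 7 h against 5 h.

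Counts of the smaller comparisons moved more, and the cause was not tested. At 5 h against 3.5 h, 14 genes became 29 with DESeq2, 22 with swimming larvae only, 4 without the low-count filter, 4 with depth as a covariate, 0 in the 36 larvae, and 0, 3 and 2 in T, K and C. At 7 h against 5 h, 599 became 956 with swimming larvae only, 288 without the filter, 45 in T and 33 in K. At 10 h against 7 h, 57 became 120 with DESeq2, 135 with swimming larvae only, 95 in the 36 larvae, 31 without the filter, 1 in T and 29 in K. For 10 h against 3.5 h in seawater, 1186 became 282 in T and 369 in K. With Mesophyllum sp., 923 became 1584 without the library term, 590 without the filter, 249 in T, 10 in C and 439 without set C, an alternative added after the data were seen. The difference between A. fragilissima and seawater, 11 genes, became 24 with DESeq2, 7 without the filter, 5 with depth as a covariate, 6 without set C and 0 in T and in K. The difference between A. fragilissima and Mesophyllum sp., 2 genes, became 23 with DESeq2, 1 without the library term, 4 in C, and 0 without the filter, in T and without set C. For named genes, 211 alternative values kept their side of the threshold, 57 lost the call and 1 gained it.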
